A study of Mus musculus with 21 samples.

Results

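Stenotic aortic valves were compared with healthy ones across all genes in mice heterozygous for Notch1 (N1het). The comparison holds every N1het library of the series, 17 of 21: 6 from stenotic valves and 11 from healthy valves, chosen by the names of the columns that hold them. Treatment entered as a term beside valve state. Of the stenotic libraries, 3 came from mice given XCT790 and 3 from mice given control solvent, and of the healthy ones 5 and 6. All of these mice were of generation 2 of a Terc-/- line, so healthy controls lack the telomerase RNA as well, and their Notch1 genotype is labelled N1+/-. XCT790 is an inverse agonist of the nuclear receptor ERRα, which Esrra encodes; mice received 5 mg/kg per day or solvent by daily injection into the peritoneum for 4 weeks from 4 weeks of age. The other 4 libraries, from healthy N1+/+ valves of the same Terc-/- generation after solvent (WT), took no part in the test. The labels do not say which libraries are separate animals, so the p-values measure the spread between samples, which may be partly technical.

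The leaflets of the aortic valve are built of interstitial cells that lay down collagen, proteoglycans and elastic fibres, covered by an endothelium and patrolled by macrophages. Stenosis is the narrowing of the opening as leaflets thicken, stiffen or calcify. Heterozygous loss of NOTCH1 is a known cause of aortic valve disease in people, and the loss of telomerase in mice with 1 working Notch1 allele is used to bring the disease out.

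Labels disagree on treatment. A separate agent field contradicts the title in 6 of the 17 libraries: it gives XCT790 to N1het stenosis 1, 2 and 3, and solvent to N1het healthy XCT790 1, 2 and 3. By that field all 6 stenotic libraries and 2 of the 11 healthy ones had XCT790, so that stenosis and agent can hardly be told apart. Titles, which match the column names, were followed here, and values with the agent field in place of the title are given for the called genes named here and for list medians where they change the sign or move the value by over 1.5 times. Depth ran from 8.86 to 17.7 M reads (M for mega; median 12.45) in stenotic libraries and from 10.9 to 27.3 M (median 14.46) in healthy ones. Reads on mitochondrially encoded genes made up 0.335% to 6.17% in stenotic libraries and 0.058% to 6.18% in healthy ones. The stenotic minus healthy difference was -0.37 in log2 depth (exact permutation within treatments, two-sided p = 0.136) and 1.14 in log2 mitochondrial percent (p = 0.29). Libraries with over 16 M reads were 1 stenotic and 4 healthy ones, and all 5 had a mitochondrial share of 0.521% or less.

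The called genes that were higher in stenotic valves included Lyz1, Lyz2 and Trem2 of phagocytes, the interferon-induced Ifi27l2a and the secreted signals Ccl2, Edn1 and Nppb. Those that were lower included the matrix genes Dcn, Vcan and Mfap4 and the Wnt-pathway genes Lef1, Rspo3 and Dkk3. Of 14964 genes with a mean of 1 FPKM or more (fragment counts scaled to gene length and library size), 67 were called by limma at an adjusted p under 0.05, which is 0.448%. Among them 22 were higher (0.147%), with log2 differences of 0.72 to 3.32, and 45 were lower (0.301%), with differences of -0.64 to -2.86. Differences are stenotic minus healthy on the log2(FPKM + 1) scale, which understates changes of low genes. The unadjusted p was under 0.05 for 1978 genes (13.2%), with 7.03% of all genes higher and 6.19% lower. In 15 of the called genes, 1 higher and 14 lower, no stenotic library overlapped a healthy one, against 22 of all genes tested (0.147%; 0.0401% above and 0.107% below).

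The count depended on single libraries and on the labels. Without the 5 libraries of over 16 M reads it was 0 (1299 at an unadjusted p under 0.05). All 67 genes kept their sign there, with median differences of 1.54 for the higher and -1.0 for the lower ones, against 1.66 and -1.15 in all libraries. Since the genes were chosen on all 17 libraries, signs and sizes kept here and in the fits below are partly fixed by that choice. With the agent field in place of the title it was 1, the clone D930049A15Rik, and 55 of the 67 genes had an unadjusted p under 0.05. All 67 kept their sign, but with that field the difference came to 0.82 for Lyz2, 0.90 for Trem2, 1.38 for Atp6v0d2, 1.10 for Ccl2 and 0.53 for H2-K1 among the higher genes. It came to -0.55 for Prg4, -0.62 for Vcan, -0.46 for Ltbp4 and -1.08 for Ppp1r1b among the lower ones. Leaving out 1 library gave 12 genes without N1het stenosis 3, 26 without stenosis 2, 27 without stenosis 1, 37 without stenosis XCT790 3, 37 and 39 without healthy XCT790 2 and 1, and 104, 114 and 134 without healthy 3, healthy XCT790 5 and stenosis XCT790 1. A set of 11 genes stayed called whichever of the 17 libraries was left out, among them Lyz1, Ifi27l2a and Ccl2, which were higher, and Coch, Tmem132c, Apcdd1, Rspo3, Abcc9, Cyp2e1 and Dcn, which were lower. Each of the other 56 lost its call in at least 1 such fit, most often without N1het stenosis 3, where 56 of the 67 were lost. H2-K1 was called in 3 of the 17 fits, Prg4 in 5, Ltbp4 in 6, Vcan and Msx1 in 7 and Trem2 in 8. Of the 11 genes, Coch was not called by limma's voom on reads recovered from the FPKM (adjusted p = 0.068).

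**Figure D1:**
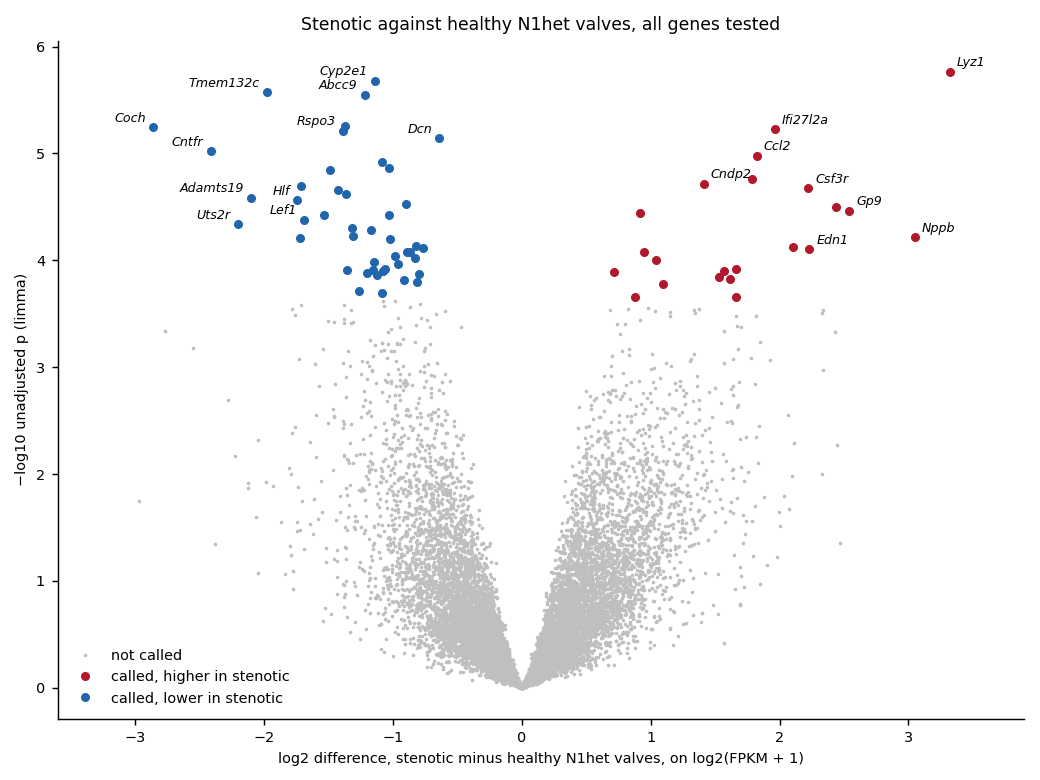
Log2 difference (stenotic minus healthy N1het valves, x axis) against −log10 of the unadjusted limma p (y axis) for 14964 genes; red points are the 22 called genes higher and blue points the 45 called genes lower in stenotic valves. Lyz1 lies farthest right among the called genes at 3.32 and Coch farthest left at -2.86.

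Promoter sequences of 3 of the higher genes are given first, from RefSeq on build GRCm38.p6 (250 bases before to 50 after the start of the gene, gene strand); the authors' files were made on mm9, so these positions are not theirs. Lyz1 and Lyz2 encode the 2 mouse lysozymes and are neighbouring copies of 1 gene on chromosome 10, both on the minus strand. Their windows, chr10:117292819-117293118 for Lyz1 and chr10:117282223-117282522 for Lyz2, were identical at 249 of 298 aligned bases (83.6%) and at 115 of the last 120. Capitals mark the bases that differ.
Lyz1: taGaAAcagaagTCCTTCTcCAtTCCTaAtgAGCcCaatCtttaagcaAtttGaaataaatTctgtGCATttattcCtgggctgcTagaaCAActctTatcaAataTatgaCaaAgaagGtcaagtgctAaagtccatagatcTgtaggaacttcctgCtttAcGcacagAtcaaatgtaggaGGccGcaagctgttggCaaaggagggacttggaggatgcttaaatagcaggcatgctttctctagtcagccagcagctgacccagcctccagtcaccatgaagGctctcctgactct
Lyz2: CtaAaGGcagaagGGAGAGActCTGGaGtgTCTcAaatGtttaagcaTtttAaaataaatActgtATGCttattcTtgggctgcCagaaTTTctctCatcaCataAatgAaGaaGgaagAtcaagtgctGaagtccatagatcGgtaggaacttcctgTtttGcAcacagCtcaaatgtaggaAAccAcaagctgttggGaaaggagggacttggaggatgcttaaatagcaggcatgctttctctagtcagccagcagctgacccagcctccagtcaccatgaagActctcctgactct
With copies this close, how reads were divided between the 2 genes is uncertain, and their values are best read together. Nppb encodes B-type natriuretic peptide, a hormone that stretched heart muscle releases. Its window, chr4:147985650-147985949 on the plus strand, holds the letters GATAA at 94 and 83 bases before the start and GGAATG at 105 bases before it, in capitals below.
Nppb: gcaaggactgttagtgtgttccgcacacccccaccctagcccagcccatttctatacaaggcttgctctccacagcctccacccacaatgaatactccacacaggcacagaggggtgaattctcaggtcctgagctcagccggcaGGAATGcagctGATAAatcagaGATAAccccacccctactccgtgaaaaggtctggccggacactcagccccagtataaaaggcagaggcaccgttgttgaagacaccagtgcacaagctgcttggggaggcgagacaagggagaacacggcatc
In rat and human BNP promoters such letters are known as GATA and M-CAT elements. Searched on both strands, GATAA occurs in 25.4%, GGAATG in 14.7% and both in 3.77% of 32851 mouse promoter windows of this length. The match describes the sequence only. Among the 67 called genes, 40 have a window in the RefSeq table.

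Genes of phagocytes were among the called genes that were higher. Lyz1, the lysozyme gene best known from intestinal Paneth cells and some myeloid cells, had 15.7, 59.6 and 222 FPKM in stenotic XCT790 libraries and 124, 111 and 152 in stenotic solvent libraries. The 11 healthy libraries ran from 3.42 to 29.4 FPKM with a median of 8.33. All stenotic libraries but N1het stenosis XCT790 1 lay above every healthy one, and the log2 difference was 3.32 ± 0.49 (SE; limma adjusted p = 0.0105). Lyz2, the lysozyme of macrophages and neutrophils, averaged 2828 ± 1219 FPKM in stenotic valves and 921 ± 404 in healthy valves (SD, n = 6 and 11), a difference of 1.62 ± 0.34 (adjusted p = 0.0374), and was called in 6 of the 17 fits that leave out a library. WT libraries averaged 5.42 FPKM of Lyz1 and 682 of Lyz2.

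Trem2, a lipid-sensing receptor of macrophages, ran from 3.98 to 26.6 FPKM in stenotic valves with a median of 15.1, against 1.66 to 8.14 with a median of 3.36 in healthy valves. Atp6v0d2, a proton pump subunit of osteoclasts and some macrophages, had 0.497, 12.9 and 13.2 FPKM in stenotic XCT790 libraries and 9.89, 5.23 and 10.9 in stenotic solvent libraries, against 0 to 3.59 with a median of 0.283 in healthy ones. N1het stenosis XCT790 1, low for Lyz1 too, was the only stenotic library within the healthy range of either gene. Differences were 1.66 ± 0.35 for Trem2 (limma adjusted p = 0.0349) and 2.44 ± 0.45 for Atp6v0d2 (adjusted p = 0.0197). Atp6v0d2 averaged 0.620 FPKM in healthy valves and passed the filter of a mean of 1 FPKM only through stenotic values. Its difference above 0 is thus partly fixed by that filter. Csf3r, the receptor for granulocyte colony-stimulating factor, had 1.75 to 20.4 FPKM in stenotic valves with a median of 9.24, against 0 to 2.00 with a median of 0.701 in healthy valves, which differ by 2.22 ± 0.40 (adjusted p = 0.0174). Selplg, the ligand by which white blood cells hold on to selectins, averaged 32.7 ± 18.8 FPKM in stenotic and 8.47 ± 4.54 in healthy valves and rose by 1.79 ± 0.32 (adjusted p = 0.0174).

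Macrophage markers as a list pointed the same way. Of its 32 tested members 31 had a difference above 0, beside 50.1% of all genes. With a positive sign, 26 had an unadjusted p under 0.05, beside 7.03% of all genes. Called were 2, Lyz2 and Trem2, beside 0.147% of all genes called higher. The list's median difference was 0.95, beside 0.00 over all genes, at 0.42 in XCT790 and 1.44 in solvent libraries. Ms4a7 (1.67 ± 0.39) and Tyrobp (1.31 ± 0.33) came next with adjusted p-values of 0.0574 and 0.0844. Their summed level was 3033 to 11954 FPKM in stenotic libraries and 1607 to 6055 FPKM in healthy ones, so that the groups overlapped. The highest healthy sums, 4944 and 6055, belonged to N1het healthy XCT790 4 and 5, the 2 healthy libraries that have XCT790 by both labels, and with the agent field in place of the title the list's median was 0.08. In whole valves, more cells of a type and more RNA per cell cannot be told apart. Members of a list come from the same libraries and often the same cells, so they are not independent.

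Neutrophil markers rested on few genes: S100a9 ran from 0 to 31.9 FPKM in stenotic valves with a median of 0.757, and from 0 to 0.0772 in healthy ones with a median of 0, a difference of 1.83 ± 0.62 (limma adjusted p = 0.195). Of 13 such markers 9 were in the table and 3 tested, of which Csf3r was called (0.147% of all genes were called higher). Testing required a mean of 1 FPKM over both groups. Csf3r averaged 0.867 FPKM in healthy valves, so it and S100a9 passed only through stenotic values. Their differences above 0 are thus partly fixed by that filter. The list's median was 1.83, and 0.27 without the filter. The summed neutrophil level was 2.70 to 57.4 FPKM in stenotic and 0.383 to 10.1 FPKM in healthy libraries. T and NK cell markers summed to at most 35.3 FPKM in stenotic and 19.8 FPKM in healthy libraries, and B cell markers to at most 83.3 FPKM in stenotic and 87.0 FPKM in healthy ones, with no gene of either list called. Mast cell markers summed to 1.82 to 57.4 FPKM in stenotic and 2.08 to 572 FPKM in healthy libraries, where N1het healthy XCT790 4 held the highest value. The part of these cell types in the differences was not tested.

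Interferon-induced genes were next. Ifi27l2a, a small mitochondrial protein gene switched on by interferon, was the only called gene for which every stenotic library lay above every healthy one. It had 382, 454 and 1373 FPKM in stenotic XCT790 libraries and 612, 669 and 664 in stenotic solvent libraries, against 51.2 to 270 with a median of 178 in healthy ones. The difference was 1.96 ± 0.32 (limma adjusted p = 0.0115), and WT libraries averaged 194 FPKM. In the list of interferon-stimulated genes 31 of 32 tested members had a difference above 0 (50.1% of all genes), 11 with an unadjusted p under 0.05 (7.03%), and Ifi27l2a alone was called (0.147%). The list's mean log2 level ran from 3.66 to 5.65 in stenotic and from 2.85 to 4.40 in healthy libraries, so that the groups overlapped. N1het stenosis XCT790 3 held the highest value, with the next stenotic library at 4.69. The list's median was 0.79, at 0.63 in XCT790 and 0.84 in solvent libraries, and 0.52 with the agent field in place of the title. Rtp4, a chaperone of receptors, differed by 1.58 ± 0.53 and Oas1a, which senses double-stranded RNA, by 1.24 ± 0.36 (adjusted p = 0.194 and 0.129).

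Antigen presentation on MHC class I gave 1 call among 18 tested genes, beside 0.147% of all genes called higher. H2-K1, a classical class I heavy chain, averaged 315 ± 77.1 FPKM in stenotic and 171 ± 46.5 FPKM in healthy valves, a difference of 0.88 ± 0.19 (limma adjusted p = 0.0496). It was called in 3 of the 17 fits that leave out a library, and not with mitochondrial share as a covariate (adjusted p = 0.096). With that covariate 46 genes were called, 42 of them among the 67. Trem2, Edn1, Msx1, Prg4, Ltbp4 and Vcan also lost their call there (limma adjusted p = 0.0833, 0.0611, 0.0833, 0.0665, 0.0671 and 0.0513). Class I genes are close copies, so reads may be shared between them. The list had 16 of 18 tested members above 0 (50.1% of all genes), 9 with an unadjusted p under 0.05 (7.03%), and a median of 0.44, which was 0.21 with the agent field in place of the title. Tap1, the peptide transporter, differed by 1.00 ± 0.26 (adjusted p = 0.091). Class II genes split, with 8 of 12 above 0, none called and a median of 0.26, which turned to -0.18 in XCT790 libraries and to -0.57 with the agent field; with an unadjusted p under 0.05 there were 1 above and 2 below 0.

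Secreted signals were among the called genes that were higher. Ccl2, the chemokine that draws monocytes, had 120, 92.7 and 205 FPKM in stenotic XCT790 libraries and 196, 60.4 and 86.0 in stenotic solvent libraries, against 15.7 to 75.1 with a median of 33.1 in healthy ones. Stenotic values exceeded every healthy one except in N1het stenosis 2, which lay below N1het healthy XCT790 4 alone. The difference was 1.82 ± 0.31 (limma adjusted p = 0.0143). The other monocyte chemokines Ccl6, Ccl7 and Ccl12 differed by 1.92 ± 0.49, 1.57 ± 0.40 and 1.17 ± 0.33 and did not pass (adjusted p = 0.0857, 0.0858 and 0.126). Of 21 tested chemokine genes 17 lay above 0 (50.1% of all genes), with a median of 0.93, and 0.21 with the agent field in place of the title. Edn1, which encodes the vessel-constricting peptide endothelin-1, had 7.88 to 26.1 FPKM in stenotic valves with a median of 17.6, against 0 to 8.03 with a median of 3.73 in healthy ones, a difference of 2.23 ± 0.45 (adjusted p = 0.0293). Again N1het stenosis XCT790 1 alone overlapped the healthy range.

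Nppb had 0, 34.6 and 2.88 FPKM in stenotic XCT790 libraries and 11.2, 38.7 and 30.5 in stenotic solvent libraries. Healthy libraries ran from 0 to 2.20 FPKM with a median of 0.113, and all 4 WT libraries were listed at 0. Only N1het stenosis XCT790 1, listed at 0, did not lie above every healthy library, and the difference was 3.05 ± 0.60 (limma adjusted p = 0.0261). Nppb averaged 0.535 FPKM in healthy valves and passed the filter of a mean of 1 FPKM only through stenotic values. Its difference above 0 is thus partly fixed by that filter. Nppa, the atrial peptide gene, differed by 0.87 ± 0.94 (adjusted p = 0.748), and none of the 18 tested heart muscle markers was called, with 7 above and 11 below 0. Of all genes 0.448% were called and 49.9% lay below 0. No call among 18 genes, as in other short lists, thus says little about them. The summed level of the heart muscle markers was 134 to 5076 FPKM in stenotic and 142 to 5975 FPKM in healthy libraries. With that level as a covariate 79 genes were called, 65 of them among the 67.

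Genes of platelets and of growth factor signalling also appeared. Gp9, part of the platelet receptor for von Willebrand factor, had 3.25, 2.85 and 8.20 FPKM in stenotic XCT790 libraries and 8.89, 25.2 and 30.0 in stenotic solvent libraries, against 0 to 8.82 with a median of 0.107 in healthy ones, so that the groups overlapped. It differed by 2.54 ± 0.48 (limma adjusted p = 0.0203). Among called genes picked out after their values were seen, Itgb3, the integrin β3 chain of platelets and osteoclasts, averaged 13.8 ± 6.15 FPKM in stenotic and 4.29 ± 2.54 in healthy valves (1.53 ± 0.33, adjusted p = 0.0365). Pdgfb, a chain of platelet-derived growth factor, averaged 16 ± 8.52 and 4.69 ± 2.42 FPKM (1.57 ± 0.33, adjusted p = 0.0349). The platelet chemokine genes Pf4 and Ppbp, picked likewise, differed by 0.93 ± 0.36 and 1.72 ± 0.70 without passing (adjusted p = 0.252 and 0.289). U11, a small nuclear RNA of the minor spliceosome, averaged 15.9 ± 6.79 FPKM in stenotic and 3.19 ± 2.06 in healthy valves and rose by 2.10 ± 0.42 (adjusted p = 0.0293); its symbol stands on 2 rows of the table, so reads may be shared between copies. Cndp2, a dipeptidase, and Grk5, a kinase that turns off G protein-coupled receptors, also chosen after their values were seen, rose by 1.41 ± 0.25 and 0.92 ± 0.17 (adjusted p = 0.0174 and 0.0203).

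**Figure D2:**
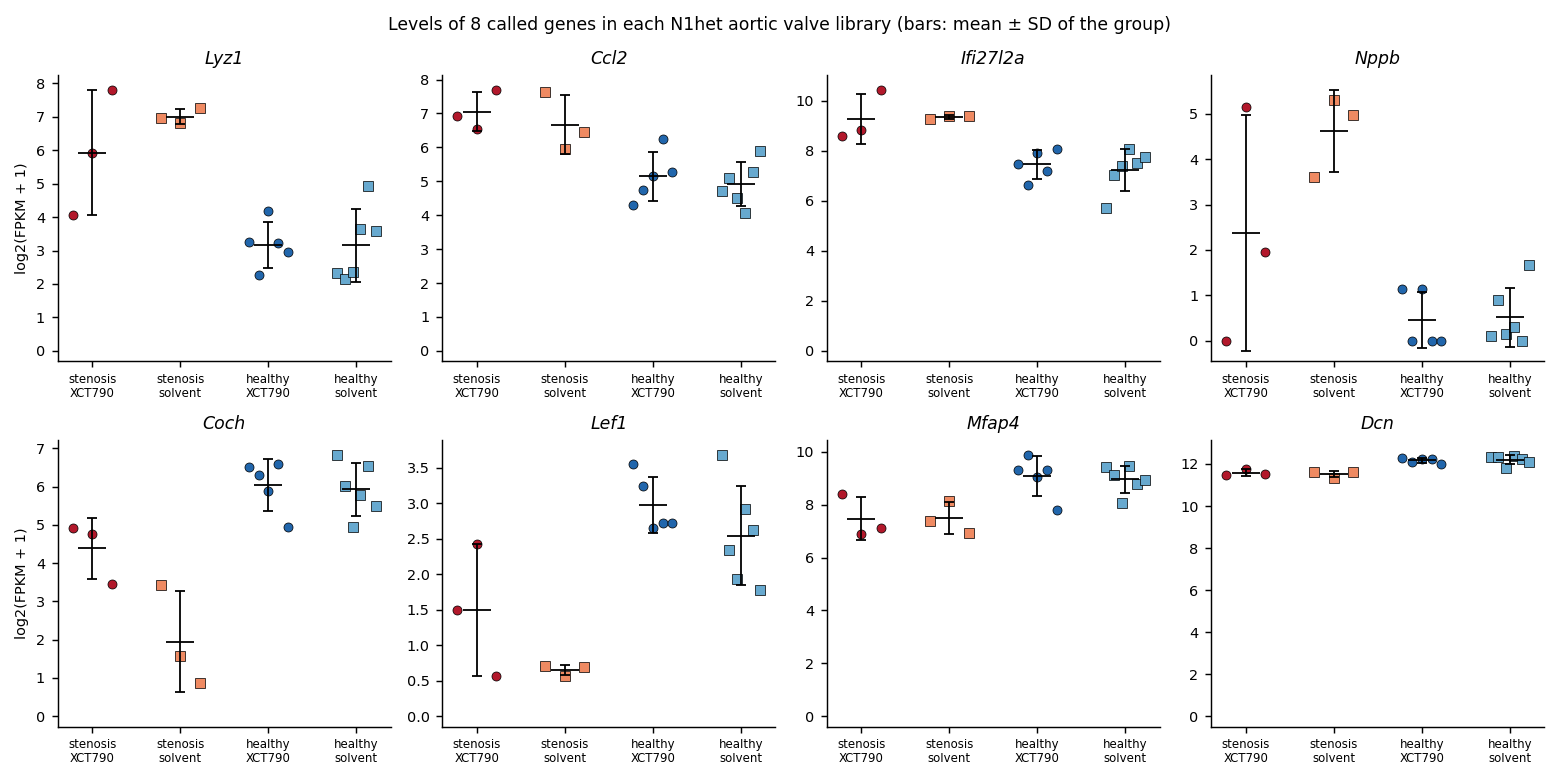
Levels of 8 called genes as log2(FPKM + 1), 1 point per library, in stenotic XCT790 (n = 3), stenotic solvent (n = 3), healthy XCT790 (n = 5) and healthy solvent (n = 6) libraries, with the mean and SD of each group. Every stenotic point lies above every healthy point for Ifi27l2a and below every healthy point for Coch and Dcn, while the other panels overlap in 1 or more libraries.

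Several matrix genes were among the called genes that were lower. Dcn, which encodes decorin, a small proteoglycan that coats collagen fibrils and is abundant in valves, had 2580 to 3503 FPKM in stenotic libraries with a median of 3015, against 3640 to 5373 with a median of 4853 in healthy ones. The groups did not overlap. The difference was -0.64 ± 0.11 (limma adjusted p = 0.0119). Vcan, the gene of versican, the large proteoglycan of the valve's spongy layer, averaged 95.2 ± 21.4 FPKM in stenotic and 218 ± 85.6 FPKM in healthy valves and fell by 1.13 ± 0.24 on the log2 scale (adjusted p = 0.0353). Prg4, which encodes the lubricant lubricin, averaged 255 ± 102 and 626 ± 251 FPKM (-1.26 ± 0.28, adjusted p = 0.045). Of 21 tested proteoglycan genes 20 lay below 0, beside 49.9% of all genes, with a median of -0.44. Called were 2, Dcn and Vcan, beside 0.301% of all genes called lower. Prelp and Lum, small leucine-rich proteoglycans like decorin, differed by -1.07 ± 0.24 and -0.60 ± 0.14, each with an adjusted p of 0.053.

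Elastic fibre genes gave 2 calls among 21 tested, beside 0.301% of all genes called lower. Mfap4, a microfibril-associated glycoprotein gene, had 338, 118 and 138 FPKM in stenotic XCT790 libraries and 168, 277 and 120 in stenotic solvent libraries, against 224 to 928 with a median of 553 in healthy ones. The groups overlapped in N1het stenosis XCT790 1 and N1het stenosis 2. It fell by 1.54 ± 0.29 on the log2 scale (limma adjusted p = 0.0203), and Ltbp4, which anchors latent TGF-β to elastic fibres, by 0.81 ± 0.17 (adjusted p = 0.0388). In this list 16 of 21 tested members lay below 0 (49.9% of all genes), 7 with an unadjusted p under 0.05 (6.19%). The median was -0.41, and -0.15 with the agent field in place of the title or -0.19 with mitochondrial share as a covariate. Adamts19, a secreted metalloprotease whose loss causes valve disease in people and mice, had 0 to 3.41 FPKM in stenotic valves with a median of 0.904, against 2.07 to 20.4 with a median of 7.35 in healthy ones. Its difference was -2.10 ± 0.38 (adjusted p = 0.0184), with 1 stenotic library inside the healthy range. Collagen genes were less uniform: 16 of 21 lay below 0 with a median of -0.20 (-0.11 with the agent field or with mitochondrial share as a covariate), none was called, and Col12a1 (-1.07 ± 0.32) and Col4a2 (0.64 ± 0.23) led in opposite directions (adjusted p = 0.141 and 0.228).

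Coch, the gene of cochlin, a secreted matrix protein of the inner ear and other tissues, had the largest difference among the genes that were lower. It had 29.2, 26.2 and 9.99 FPKM in stenotic XCT790 libraries and 9.70, 1.98 and 0.807 in stenotic solvent libraries, against 29.5 to 111 with a median of 63.5 in healthy ones. No stenotic library reached the lowest healthy one, though N1het stenosis XCT790 1 came close to it. The difference was -2.86 ± 0.46 (limma adjusted p = 0.0115), and WT libraries averaged 34.7 FPKM. Markers of fibroblasts and valve interstitial cells as a list had 18 of 21 members below 0 (49.9% of all genes), with a median of -0.44. Of these 12 had an unadjusted p under 0.05 (6.19%), and 2 were called, Dcn and Mfap4 (0.301%). S100a4 went the other way, with 1063 ± 396 FPKM in stenotic and 478 ± 187 in healthy valves (1.15 ± 0.27, adjusted p = 0.054). The summed level of these markers was 8027 to 9433 FPKM in stenotic and 9475 to 15229 FPKM in healthy libraries, without overlap, with Dcn itself in the sum. The markers' mean log2 level, in which each gene weighs the same, overlapped at 6.32 to 6.94 in stenotic and 6.5 to 7.37 in healthy libraries. FPKM are shares of a library, so a rise of some genes lowers the share of others.

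Of 30 tested Wnt-pathway genes 25 lay below 0 (49.9% of all genes), 11 with an unadjusted p under 0.05 (6.19%), and 3 were called (0.301%). The median was -0.40, and -0.63 with the agent field in place of the title. Lef1, a transcription factor through which β-catenin acts, had 1.82, 4.38 and 0.473 FPKM in stenotic XCT790 libraries and 0.627, 0.482 and 0.611 in stenotic solvent libraries, against 2.41 to 11.7 with a median of 5.57 in healthy ones. Only N1het stenosis XCT790 2 reached the healthy range, and the difference was -1.69 ± 0.32 (limma adjusted p = 0.0215). Rspo3, which encodes a secreted booster of Wnt signals, averaged 20.9 ± 6.83 FPKM in stenotic and 56.0 ± 19.0 FPKM in healthy valves (-1.38 ± 0.23, adjusted p = 0.0115). Dkk3, a divergent member of the Dickkopf family of Wnt inhibitors, averaged 362 ± 86.0 and 739 ± 199 FPKM (-1.02 ± 0.20, adjusted p = 0.0261). Apcdd1, a membrane-bound Wnt inhibitor outside the list, had 11.2 to 25.4 FPKM in stenotic valves with a median of 18.3, against 25.1 to 81.9 with a median of 50.1 in healthy ones, and fell by 1.49 ± 0.26 on the log2 scale (adjusted p = 0.0154).

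Transcription factors of valve development had 19 of 24 tested members below 0 (49.9% of all genes), 13 with an unadjusted p under 0.05 (6.19%) and 1 called (0.301%), with a median of -0.51, which was the lowest among lists with 10 or more tested genes. Msx1, a homeobox gene of the endocardial cushions from which valves form, averaged 13.8 ± 4.75 FPKM in stenotic and 29.4 ± 7.89 FPKM in healthy valves and was the list's 1 call (-1.07 ± 0.22, limma adjusted p = 0.0349). Tbx20 and Gata6, which act in valve and heart formation, differed by -0.87 ± 0.20 and -0.71 ± 0.17 (adjusted p = 0.053 and 0.0574). Hlf, a transcription factor whose RNA follows the daily clock in many tissues, had 3.35 to 20.5 FPKM in stenotic valves with a median of 8.16, against 11.6 to 51.9 with a median of 31.8 in healthy ones (-1.74 ± 0.32, adjusted p = 0.0187). Nr1d1, which encodes the clock repressor REV-ERBα and was chosen after its values were seen, averaged 102 ± 21.9 and 218 ± 50.5 FPKM (-1.09 ± 0.19, adjusted p = 0.0148). The clock genes Dbp and Per2, picked the same way, differed by -1.46 ± 0.43 and -1.39 ± 0.41 and did not pass (adjusted p = 0.132 and 0.139).

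Notch1 itself ran from 20.9 to 35.6 FPKM in stenotic valves with a median of 25.4, against 19.43 to 50.03 with a median of 33.7 in healthy ones. The groups overlapped and the difference of -0.36 ± 0.19 did not pass (limma adjusted p = 0.429). All 17 libraries carry the same Notch1 genotype, and WT averaged 33.9 FPKM. Of 24 tested Notch-pathway genes 14 lay above and 10 below 0, none was called, and the median was 0.04 (-0.11 with the agent field). Lfng, the glycosyltransferase that tunes Notch receptors, averaged 10.3 ± 2.42 FPKM in stenotic and 3.10 ± 2.63 FPKM in healthy valves (1.71 ± 0.40, adjusted p = 0.0574), and the Notch target Hes1 23.3 ± 8.25 and 44.1 ± 13.8 FPKM (-0.90 ± 0.24, adjusted p = 0.102). Esrra was low throughout, at 0.836 to 2.10 FPKM in stenotic and 0.364 to 2.89 FPKM in healthy valves, and differed by 0.08 ± 0.27 (adjusted p = 0.933).

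Genes of vessel wall cells and membrane receptors were also among the called genes that were lower. Uts2r, the urotensin receptor, had 1.68 to 6.68 FPKM in stenotic valves with a median of 4.19, against 3.68 to 67.6 with a median of 22 in healthy ones, and 2 of 6 stenotic libraries lay below every healthy one (-2.20 ± 0.42, limma adjusted p = 0.0229). Cntfr, the receptor subunit for ciliary neurotrophic factor, had 12.2, 0.71 and 1.18 FPKM in stenotic XCT790 libraries and 5.92, 6.77 and 1.15 in stenotic solvent libraries, against 11.4 to 53.6 with a median of 20.6 in healthy ones (-2.41 ± 0.41, adjusted p = 0.0142). Rgs5, a pericyte gene that damps G protein signals, averaged 96.2 ± 30.5 FPKM in stenotic and 175 ± 51.0 FPKM in healthy valves and fell by 0.90 ± 0.17 on the log2 scale (adjusted p = 0.0194). Chosen after their values were seen, Abcc9, the sulfonylurea receptor subunit of potassium channels in mural cells, fell by 1.22 ± 0.19 (adjusted p = 0.0105) and Angpt1, which steadies endothelium, by 1.15 ± 0.24 (adjusted p = 0.0349). The contractile smooth muscle gene Myh11 overlapped between groups and ran from 0.522 to 163 FPKM in stenotic and from 0.107 to 209 FPKM in healthy valves (1.52 ± 1.16, adjusted p = 0.624). Of 15 tested smooth muscle markers 7 lay above and 8 below 0 (49.9% of all genes below). Rgs5 alone was called, beside 0.301% of all genes called lower. The list's median was -0.02, at -0.27 in XCT790 and 0.2 in solvent libraries, and -0.14 with the agent field in place of the title.

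Tmem132c, a membrane protein gene, had 0.498 to 2.16 FPKM in stenotic valves with a median of 1.12, against 3.56 to 18.5 with a median of 7.08 in healthy ones, without overlap (-1.98 ± 0.30, limma adjusted p = 0.0105). Ppp1r1b, which encodes the phosphatase regulator DARPP-32, did not overlap either, at 2.06 to 6.62 FPKM with a median of 5.25 against 8.77 to 38.5 with a median of 15.6 (-1.72 ± 0.34, adjusted p = 0.0261). The same held for Sntg2, a syntrophin gene, at 0.604 to 1.46 FPKM in stenotic and 2.01 to 7.40 FPKM in healthy libraries (-1.42 ± 0.26, adjusted p = 0.0174). Gprasp2, a sorting protein of G protein-coupled receptors, fell by 1.71 ± 0.31 (adjusted p = 0.0174). Chosen after its values were seen, Cyp2e1, a cytochrome P450, averaged 95.9 ± 20.6 FPKM in stenotic and 212 ± 46.0 FPKM in healthy valves without overlap (-1.14 ± 0.17, adjusted p = 0.0105).

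**Figure D3:**
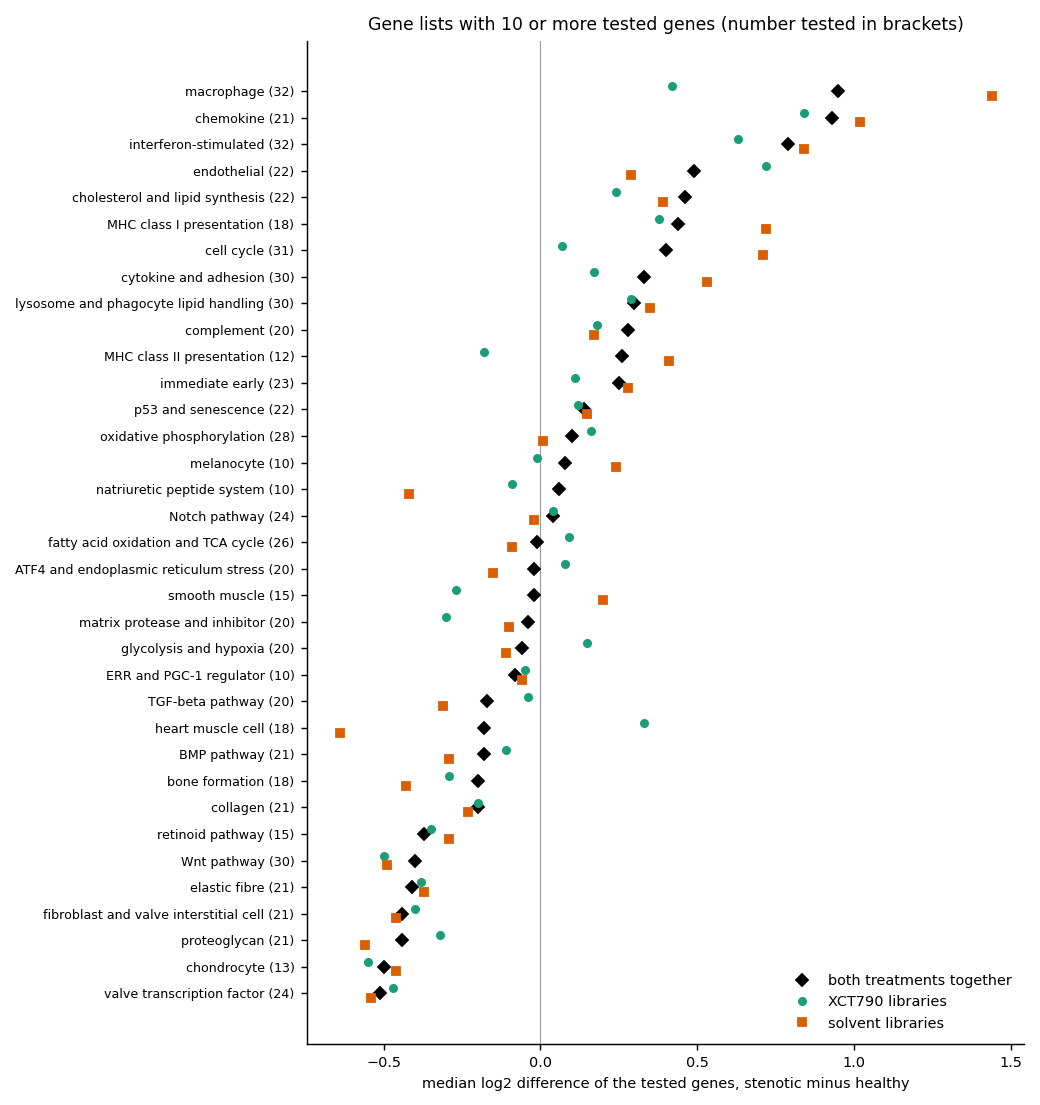
Median log2 difference (stenotic minus healthy, x axis) of each gene list with 10 or more tested genes, for both treatments together (black), XCT790 libraries (green) and solvent libraries (orange). Macrophage, chemokine and interferon-stimulated genes lie highest at 0.95, 0.93 and 0.79, and valve transcription factors lowest at -0.51; the median of all genes tested is 0.00.

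Treatment was the other axis of the design, and the 2 stenosis differences were compared gene by gene. The XCT790 minus solvent difference between them was called for 0 of 14964 genes by limma (0%, with 525 or 3.51% at an unadjusted p under 0.05), and for 0 by limma's voom on reads recovered from the FPKM. Within XCT790 libraries 0 genes were called (0%; 896 or 5.99% at an unadjusted p under 0.05) and within solvent libraries 8 (0.0535%; 1604 or 10.7% at an unadjusted p under 0.05). All 67 genes called over both treatments had the same sign in XCT790 and in solvent libraries, which share no sample; since the genes were chosen on both together, that agreement is partly fixed by the choice. Treatment itself, across both valve states, gave 0 calls (580 genes or 3.88% at an unadjusted p under 0.05). Medians of the called genes were 1.42 in XCT790 and 1.91 in solvent libraries for the 22 higher genes, and -1.14 and -1.19 for the 45 lower ones. The XCT790 difference was the larger in 2 of the 22 higher and 17 of the 45 lower genes. Across all genes tested the 2 differences had a Pearson r of 0.25, a description over genes, which are not independent replicates.

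**Figure D4:**
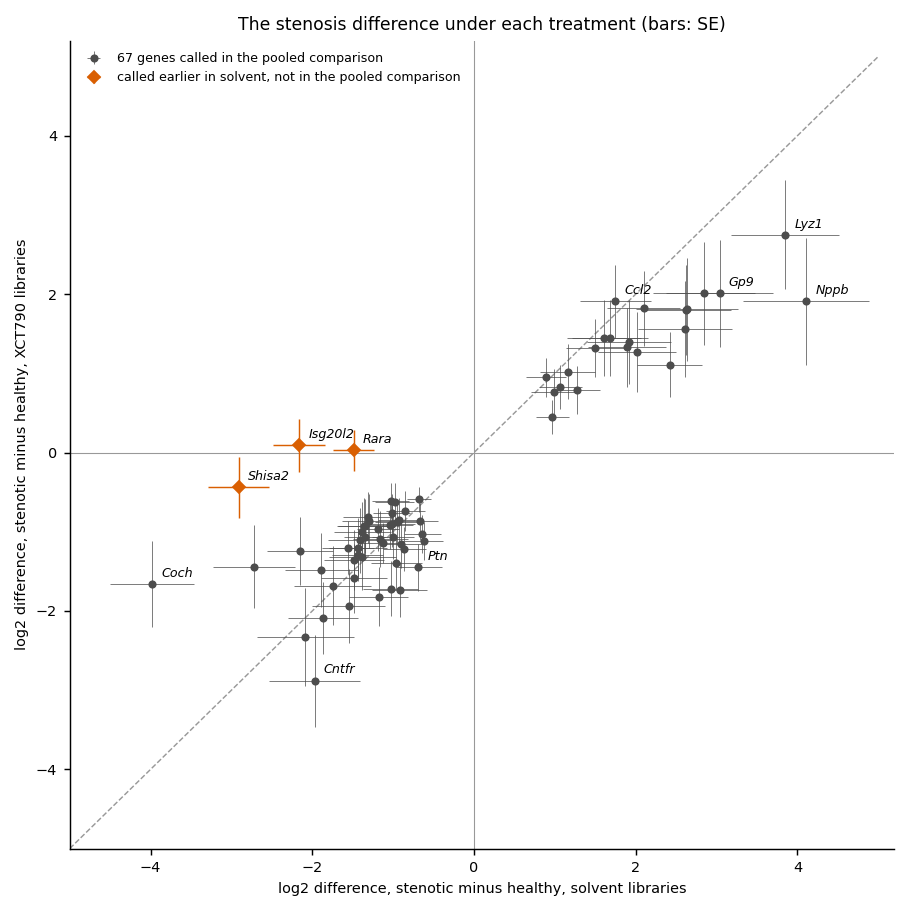
Log2 difference between stenotic and healthy valves in solvent libraries (x axis) against that in XCT790 libraries (y axis) with standard errors, for the 67 called genes (grey) and 3 genes earlier called in solvent libraries but not over both treatments (orange); the dashed line marks equal differences. Isg20l2 and Rara lie near 0 on the XCT790 axis at 0.09 and 0.03, and Shisa2 at -0.44.

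An earlier comparison of the solvent libraries alone had called 5 genes: Coch, Shisa2, Rara, Isg20l2 and Nppb. Coch and Nppb were called over both treatments. In XCT790 libraries, which took no part in that choice, Coch differed by -1.66 (exact permutation of 3 against 5 libraries, two-sided p = 0.0357, 0.179 adjusted over the 5 genes) and Nppb by 1.91 (p = 0.125, adjusted 0.312). The smallest p that 56 arrangements allow is 0.0179, so 1 gene at that bound could not on its own reach an adjusted value under 0.05. Shisa2, which encodes a protein that retains Wnt and fibroblast growth factor receptors inside the cell, had 5.01, 11.6 and 10.1 FPKM in stenotic XCT790 libraries and 0.594, 1.19 and 2.51 in stenotic solvent libraries. Healthy XCT790 libraries had 7.83 to 16.6 FPKM and healthy solvent libraries 8.53 to 23.8 FPKM. Stenotic solvent values lay below all others, while 2 of the 3 stenotic XCT790 values lay within the healthy XCT790 range.

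Rara, the gene of retinoic acid receptor α, had 25.9, 20.1 and 20.8 FPKM in stenotic XCT790 libraries and 7.84, 8.79 and 7.98 in stenotic solvent libraries, against 13.1 to 31.4 in healthy XCT790 and 21.4 to 29.9 in healthy solvent libraries. Isg20l2, a nuclease of ribosomal RNA maturation, had 8.78, 6.62 and 4.45 FPKM in stenotic XCT790 and 4.00, 2.11 and 2.02 in stenotic solvent libraries, against 3.81 to 8.10 in healthy XCT790 and 10.2 to 19.9 in healthy solvent libraries. Its healthy groups themselves did not overlap. In XCT790 libraries alone the differences were -0.44 for Shisa2, 0.03 for Rara and 0.09 for Isg20l2 (exact permutation p = 0.214, 0.911 and 0.75). Over both treatments they were -1.71 ± 0.38, -0.75 ± 0.24 and -1.08 ± 0.34 (limma adjusted p = 0.053, 0.18 and 0.168), and none was called. The XCT790 minus solvent difference was 2.46 ± 0.54 for Shisa2, 1.51 ± 0.36 for Rara and 2.25 ± 0.47 for Isg20l2; since the genes were picked for their solvent difference, these are descriptions, and limma's adjusted p over all genes was at least 0.896. By the agent field the 3 stenotic solvent libraries had XCT790 as well, in which case the contrast would not be one of treatment.

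**Figure D5:**
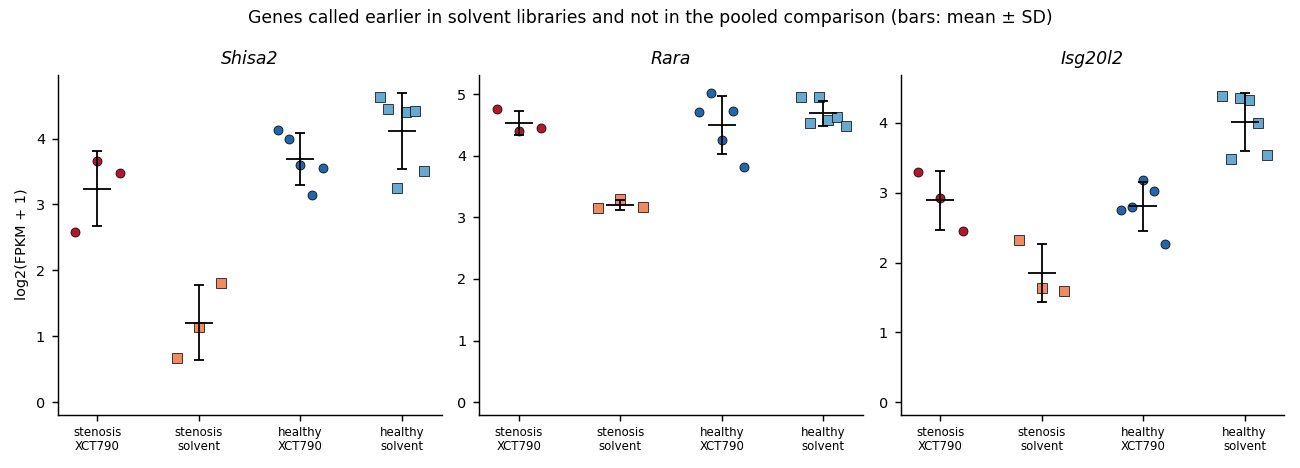
Levels of Shisa2, Rara and Isg20l2 as log2(FPKM + 1), 1 point per library, in stenotic XCT790, stenotic solvent, healthy XCT790 and healthy solvent libraries (n = 3, 3, 5 and 6), with the mean and SD of each group. In every panel the stenotic solvent points lie below the stenotic XCT790 points.

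The authors' deposited table marks 262 genes as changed between stenotic and healthy N1het valves, by a test that no source used here names, without a direction. Of these, 216 were among the genes tested here. The mark stands on 42 of the 67 called genes (62.7%), 11 higher and 31 lower, beside 1.44% of all genes tested, and 19.4% of the marked genes tested were called. Which libraries the authors compared is not stated, and the mark is not used as an independent check. Among WT valves, outside the test, the mean level was nearer to that of healthy than of stenotic N1het valves for 21 of the 22 higher and 40 of the 45 lower genes. The genes were chosen for their gap between these same stenotic and healthy libraries, so that count is partly fixed by the choice. It was not taken over all genes tested.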

How the data were processed

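Per the labels' protocols, RNA of whole aortic valves was taken up on Qiagen RNeasy Micro columns and amplified with NuGEN's Ovation V2 system. Build mm9 and the programs HISAT2, Picard, SAMtools and FastQC are named by the submitters' processing notes. Program versions, how reads were counted and on which annotation or strand: not given in the sources used here. The authors deposited 1 table of 20872 genes with the FPKM of each library, per the file headers, and a score of 0 or 1 by which the authors marked changed genes in each of their comparisons. Of its columns, 9 were not used.

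The FPKM were tested as deposited, on log2(FPKM + 1), by limma (version 3.58.1, variance trend, robust fit through statmod 1.5.0, run in R 4.3.3), for valve state and treatment by title over the 17 N1het libraries. Genes had a mean of 1 FPKM or more over both groups, and 5908 were left out. Some called genes passed that filter only through stenotic libraries. Csf3r, Atp6v0d2 and Nppb averaged 0.867, 0.620 and 0.535 FPKM in healthy valves, so their differences above 0 are partly fixed by the filter. Benjamini-Hochberg adjusted p under 0.05 made a call. Differences within treatments and between them came from 4 group means. The scripts were tested on simulated data. Whole reads, recovered from the FPKM for 100% of values within 0.01 reads, served for depth and for voom. Each gene's scale was chosen to make its values whole, so that share is partly fixed by the choice. Amplified reads are not independent molecules. Depth sets how well low genes are measured.

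Members and the 46 gene lists (848 of 879 genes in the table) were chosen with earlier results of these data known. Genes were named by a rule: Notch1, Esrra, 5 genes called earlier in solvent libraries, up to 12 called genes of largest difference per direction with a mean of 3 FPKM or more (clone names passed over), the 4 of smallest p per list, with 3 of highest level for marker lists, and up to 3 of smallest p per direction between treatments. Others are said to be chosen after their values were seen. Gene functions are background. Replicate numbers were not taken as pairs. Alternatives covered pseudocount, filters, scaling, covariates, other models and libraries left out. 1 of the called genes is not reported here by name.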

Additional observations from a re-analysis of the deposited data

Results flagged for a closer look

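Single libraries stood apart from the rest of their group in 5 of 93 groups of values looked at, beside about 1 in 20 that chance gives. In N1het stenosis XCT790 1 Atp6v0d2 was at 0.497 FPKM, lowest of the 6 stenotic libraries, where the next held 5.23 FPKM. Gp9 was at 2.29 FPKM in N1het healthy XCT790 1, highest of its 5 libraries, with the next at 0.107 FPKM. In N1het healthy 6 Hlf was at 11.6 FPKM, lowest of the 6 healthy solvent libraries, with the next at 25.2 FPKM. Esrra was lowest in N1het stenosis 3 at 0.836 FPKM (next 1.64 FPKM) and in N1het healthy 3 at 0.364 FPKM (next 1.24 FPKM). Gaps were judged on the log2(FPKM + 1) scale for genes.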

How the results depend on the processing

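The main count of 67 genes (22 higher, 45 lower) became 105 with a minimum mean of 5 FPKM, 187 at an adjusted p under 0.1, 114 under voom with sample weights and 31 without variance trend and robust fit. It became 14 in solvent libraries only, 0 in XCT790 libraries only (916 at an unadjusted p under 0.05), 0 without libraries over 16 M reads (1299) and 1 with the agent field as covariate; the last 3 compare fewer samples or leave 2 healthy libraries under the agent of the stenotic ones. Leaving out 1 library gave 12 to 134. Other settings gave 46 to 98. Of voom's 74 calls 33 were higher and 41 lower, and 54 were among the 67. All 67 kept their sign under voom, which is partly fixed by their choice on the same libraries. Genes that lost their call there included Coch, Nppb, Csf3r, Lef1 and Adamts19 (voom adjusted p = 0.068, 0.0502, 0.0567, 0.0788 and 0.144). The count for the difference between treatments was 0 in each setting run, and 0 to 2 with 1 library left out (2 without N1het stenosis XCT790 3). Same-numbered stenotic and healthy libraries of the same treatment deviated together with r of -0.06 to 0.09, and 1 of 6 stenotic libraries correlated best with its own number. Whether same-numbered libraries share a factor across treatments was not tested. The replicate block gave 47 calls, 30 of them among the 67. Of 1067 single-gene values under alternatives 1064 kept their sign, which is partly fixed since the alternatives reuse the same libraries. The exceptions were Esrra (-0.21 with the agent field) and Rara and Isg20l2 (0.03 and 0.09 in XCT790 libraries only). With the agent field 11 of 46 list medians moved by more than the spread between libraries. Differences of depth and mitochondrial share kept sign and side of the threshold, at -0.48 to -0.28 and 0.73 to 1.67 with 1 library left out. The planned edgeR fit was not run, since the table holds FPKM. With 8.86 M reads in the smallest library, genes of a few FPKM carry wide errors.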

Other observations

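Of 10 tested natriuretic peptide system genes Nppb alone was called (0.147% of all genes were called higher), with 5 above and 5 below 0. Npr1, the receptor of the circulating peptides, averaged 14.5 ± 7.30 FPKM in stenotic and 26.3 ± 7.01 FPKM in healthy valves (SD, n = 6 and 11; log2 difference -0.92 ± 0.25, limma adjusted p = 0.102). Npr2, the receptor of C-type peptide, differed by -0.63 ± 0.23 (adjusted p = 0.229). Of retinoid-pathway genes, Rara included, 11 of 15 tested members lay below 0 with a median of -0.37 (-0.23 with mitochondrial share as a covariate) and none called; Rarg, another retinoic acid receptor gene, averaged 9.37 ± 2.09 FPKM in stenotic and 16.5 ± 6.47 FPKM in healthy valves.

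Endothelial markers leaned the other way, with 20 of 22 tested members above 0 (50.1% of all genes), a median of 0.49 (0.78 with the agent field in place of the title) and none called. Mmrn2, an endothelial matrix gene, averaged 29.7 ± 5.60 FPKM in stenotic and 16.8 ± 13.4 FPKM in healthy valves (1.07 ± 0.37, adjusted p = 0.205), while Pecam1 differed by 0.39 ± 0.32 (adjusted p = 0.66). Cell cycle genes had 28 of 31 members above 0 with a median of 0.40, at 0.07 in XCT790 and 0.71 in solvent libraries and -0.03 with the agent field in place of the title, none called. Genes of cholesterol synthesis and uptake had 17 of 22 above 0 with a median of 0.46, and -0.12 with the agent field in place of the title. The alarmin gene Il33 averaged 19.1 ± 14.2 FPKM in stenotic and 39.5 ± 16.1 FPKM in healthy valves, with 5 of 6 stenotic libraries below every healthy one (-1.20 ± 0.31, adjusted p = 0.0858).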
